A study of Mus musculus with 6 samples.

Results

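The genes of mitochondrial protein import and of the chaperones and proteases of the mitochondrial matrix were examined in TM4 cells, an established line of mouse Sertoli cells. The members were the protein-coding genes whose symbol begins with Timm or Tomm and a digit, together with 16 named genes (Hspa9, Hspd1, Hspe1, Grpel1, Trap1, Dnaja3, Dnajc19, Pam16, Pmpca, Pmpcb, Clpp, Clpx, Lonp1, Samm50, Chchd4 and Gfer). The table held 40 of them among 24354 genes. RNA-seq libraries came from 3 samples of TM4 cells kept for 30 days in 100 nM AlCl3 (aluminium chloride) and from 3 control samples, also labelled day 30. All 6 were grown in DMEM-F12 with fetal bovine serum. Nothing in the labels ties a replicate to its own culture. The p-values therefore reflect the spread among libraries alone, and that spread may be technical. TM4 is a single line, and the extraction text speaks of retinas although the other labels name Sertoli cells.

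Nearly all mitochondrial proteins are made in the cytosol and enter the organelle through the TOM complex of the outer membrane. Proteins with a cleavable presequence pass on through the TIM23 complex of the inner membrane and are pulled into the matrix by a motor built around the Hsp70 protein of Hspa9. Carrier proteins of the inner membrane, the adenine nucleotide translocators among them, are instead escorted by small TIM chaperones to the TIM22 complex. In the matrix the presequence is cut off, and chaperonins fold the new protein while proteases of the Clp and Lon families remove what fails to fold.

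Most of the import and chaperone genes tested changed, and more rose than fell. Among the 37 members with a mean of at least 1 FPKM (a read level scaled to exon length and library size, computed by the authors), 20 were higher and 9 were lower in AlCl3, and 8 did not pass (limma on log2(FPKM + 1), Benjamini-Hochberg adjusted p under 0.05 over all 11202 genes tested). Over all genes tested 61.3% were called, 31.2% higher and 30.2% lower, whereas the members' shares were 54.1% higher and 24.3% lower. The members' median log2 fold change was 0.44, beside 0.03 for all genes tested. Log2 fold changes ran from 1.76 for Tomm22 to -0.87 for Dnaja3, and 7 members rose by at least 1 on that scale while 0 fell by as much. Values did not overlap between the groups in most members. In 18 of 37 members the lowest AlCl3 value exceeded the highest control value, against 33.7% of all genes tested, and in 10 the highest AlCl3 value was under the lowest control value, against 32.4%. In such bulk libraries, fewer cells that express a gene and less of its RNA per cell cannot be told apart.

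**Figure D1:**
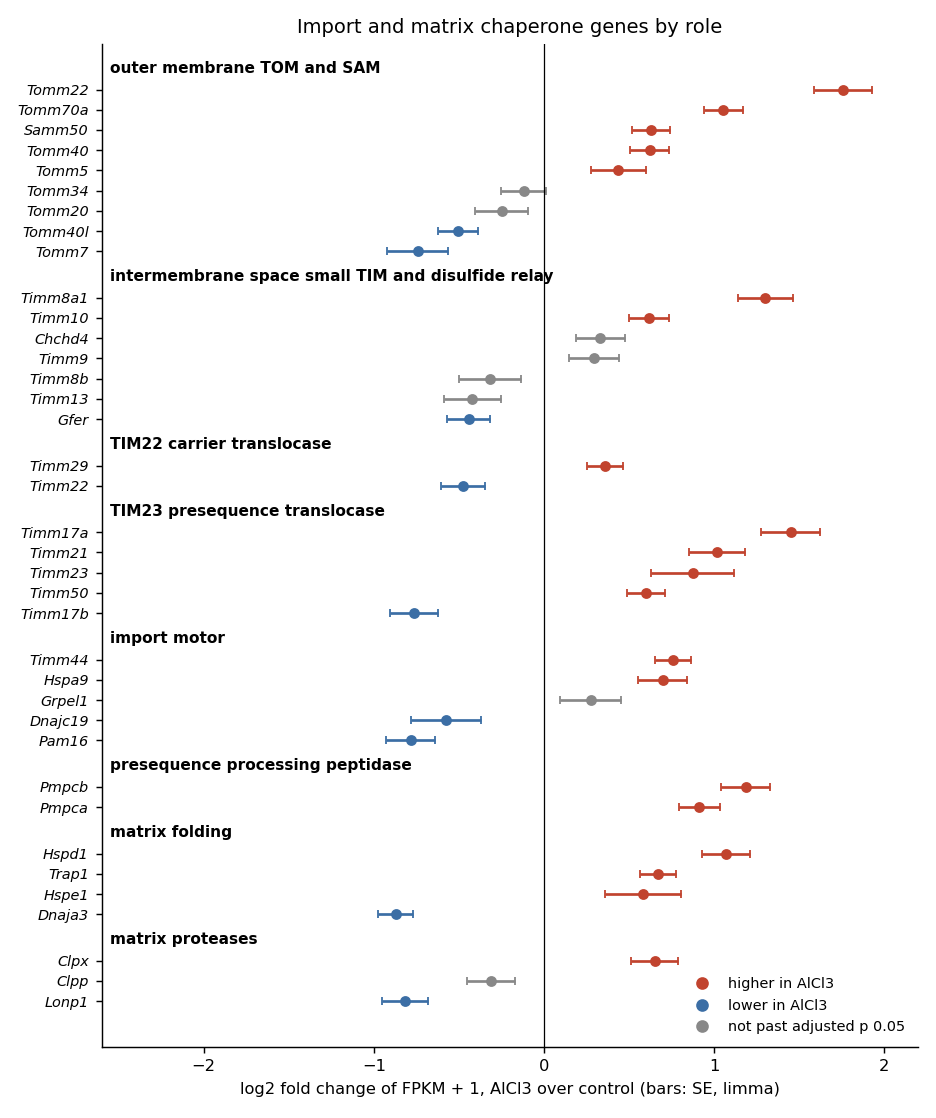
Log2 fold change of FPKM + 1 (AlCl3 over control, horizontal axis) with its standard error for the 37 members tested, grouped by role; red points were higher, blue points lower and grey points not past an adjusted p of 0.05. Tomm22 at 1.76 and Dnaja3 at -0.87 mark the ends, and every role but the processing peptidase holds points on both sides of 0.

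Of the library facts that touch these values, reads in genes, recovered from the steps of the FPKM values, numbered 13566281 to 17584646 in AlCl3 and 16585087 to 17374214 in control libraries. Each member tested held between 1296 and 70308 reads over the 6 libraries. Genes with less than 1500 bases of exon stood apart in some libraries. The median deviation of the 8 members of that size from their group's mean was 0.10, 0.13 and -0.21 (log2) in AlCl3 1 to 3 and 0.27, -0.11 and -0.14 in control 1 to 3. Of 9 Sertoli cell markers 8 were measured, and Dhh, Gata4, Inha and Sox9 reached a mean of 1 FPKM, while Wt1 lay at 0.0119 to 0.0188 FPKM in AlCl3 and 0.111 to 0.201 FPKM in control libraries. Summed FPKM of those 8 was 9.91 to 10.8 in AlCl3 and 16.8 to 23.7 in control libraries, and Gata4 and Inha made up most of it. Single markers differed in direction. Dhh, Gata4 and Inha fell, Sox9 rose (log2 fold change 0.38, limma adjusted p = 0.017), and Amh, below the filter, had 0.140 to 0.204 FPKM in AlCl3 and 0 to 0.0721 FPKM in control libraries. The 4 peritubular myoid markers summed to 171 to 199 FPKM in AlCl3 and 444 to 472 FPKM in control libraries, nearly all of it Acta2, and their part in the results was not tested. Summed levels of the measured markers stayed at or below 0.296 FPKM in AlCl3 and 0.231 FPKM in control libraries for germ cells and for retina, at 0.0885 to 0.101 FPKM in AlCl3 and 0.181 to 0.370 FPKM in control libraries for macrophages, and at 0.572 to 0.934 FPKM in AlCl3 and 0.683 to 1.20 FPKM in control libraries for Leydig cells.

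The stretches in front of 4 members are shown because their windows hold motifs that were searched, so they do not stand for all members. Tomm22 had the highest and Dnaja3 the lowest log2 fold change, and Timm8a1 rose more than the other small TIM genes tested. Hspd1 (1.07) rose less than Timm17a (1.45) and Pmpcb (1.18), which are not shown. The Timm17a window held 0 matches to the motifs searched. Each window runs from 250 bases before to 50 bases after the gene's annotated start (RefSeq, GRCm38.p6, the build of the authors' alignment), is read 5′ to 3′ on the gene's strand, and has the motif matches in capitals.
Hspd1 (chr1:55087883-55088182, minus strand): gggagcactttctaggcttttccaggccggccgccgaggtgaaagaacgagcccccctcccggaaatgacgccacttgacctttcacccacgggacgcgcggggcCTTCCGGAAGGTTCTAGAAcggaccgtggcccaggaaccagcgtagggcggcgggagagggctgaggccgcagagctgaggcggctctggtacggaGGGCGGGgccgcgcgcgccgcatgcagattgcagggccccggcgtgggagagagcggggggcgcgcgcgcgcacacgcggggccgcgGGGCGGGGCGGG
Tomm22 (chr15:79670618-79670917, plus strand): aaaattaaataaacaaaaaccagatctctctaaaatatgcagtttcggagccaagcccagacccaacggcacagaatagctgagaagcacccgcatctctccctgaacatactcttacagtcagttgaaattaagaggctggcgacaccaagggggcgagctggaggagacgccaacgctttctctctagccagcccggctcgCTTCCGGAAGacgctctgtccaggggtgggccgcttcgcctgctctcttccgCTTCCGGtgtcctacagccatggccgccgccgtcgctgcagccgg
Timm8a1 (chrX:134541621-134541920, minus strand): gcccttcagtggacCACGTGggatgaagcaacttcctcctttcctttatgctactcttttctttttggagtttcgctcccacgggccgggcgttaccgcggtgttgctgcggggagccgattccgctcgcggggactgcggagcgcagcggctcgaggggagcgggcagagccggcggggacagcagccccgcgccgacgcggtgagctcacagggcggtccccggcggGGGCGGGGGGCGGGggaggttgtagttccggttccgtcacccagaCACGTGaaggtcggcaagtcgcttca
Dnaja3 (chr16:4683820-4684119, plus strand): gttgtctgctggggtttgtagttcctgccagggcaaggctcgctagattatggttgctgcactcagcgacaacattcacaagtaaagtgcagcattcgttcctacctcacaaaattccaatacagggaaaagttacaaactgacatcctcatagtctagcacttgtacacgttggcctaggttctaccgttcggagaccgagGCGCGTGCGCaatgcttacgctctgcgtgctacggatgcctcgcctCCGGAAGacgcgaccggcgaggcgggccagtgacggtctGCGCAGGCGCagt

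In the Hspd1 window the capitals beginning 145 bases before the start mark CTTCCGGAAGGTTCTAGAA. This run holds a pair of overlapping matches to the heat shock element (GAA, TTC and GAA units, each parted from the next by a pair of free bases) and a pair to the ETS motif CCGGAAG, and the other capitals there are GC boxes (GGGCGGG). Hspe1, which encodes the partner of the Hspd1 protein, is transcribed the other way from a start 216 bases upstream, and the windows of the pair share 285 of their 300 bases, this run included. RefSeq also lists a further Hspd1 start 95 bases from that of Hspe1, and its window holds 1 E-box and 1 NRF1 match but 0 ETS and 0 heat shock matches. The Hspd1 gene in GENCODE M21, the annotation used for exon lengths, begins at this further start. Tomm22 has the palindromic run CTTCCGGAAG 47 bases before its start and a further ETS match 5 bases after it. In the Timm8a1 window the E-box CACGTG lies 236 bases before and 24 bases after the start, with a pair of GC boxes from 21 bases before it. The Dnaja3 window holds matches to the NRF1 motif (GCGCA, any base, GCGC) 48 bases before and 37 bases after the start and an ETS match at 2 bases before it.

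Over all members, 36 had a RefSeq window, 39 windows in all, and both strands were searched. The ETS motif was in 17 of 39 windows (43.6%), beside 19.0% of 10265 windows of genes tested and 8.86% of all 32851 windows. It was found in 9 of 19 windows of members that rose, 1 of 8 of members that fell and 5 of 9 of members that did not pass. These windows are not independent. Hspd1 and Hspe1, whose windows share the ETS run, both count among the rises, where Hspd1 also counts with its further window (0 ETS matches). Tomm34 counts with both of its overlapping windows. So does Timm22 among the falls, with 0 ETS matches in either window. The untested Timm10b and Timm8a2 also had a match. Matches to the heat shock element stood in 3 windows (7.69%), those of Hspd1 and Hspe1, which share the run, and that of Timm9, beside 0.477% of windows of genes tested. The E-box and the NRF1 motif were in 6 windows each (15.4%), beside 10.4% and 10.7% of windows of genes tested. GC boxes were in 38.5% of member windows and 48.4% of windows of genes tested, the CRE (TGACGTCA) in 1 member window, that of Trap1, and the C/EBP-ATF composite TGATGNAAT in 0. Member windows were richer in G and C than all windows, with a median of 60.0% beside 52.7%. GC content was not computed for windows of genes tested. These matches are descriptions of the sequence.

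**Figure D2:**
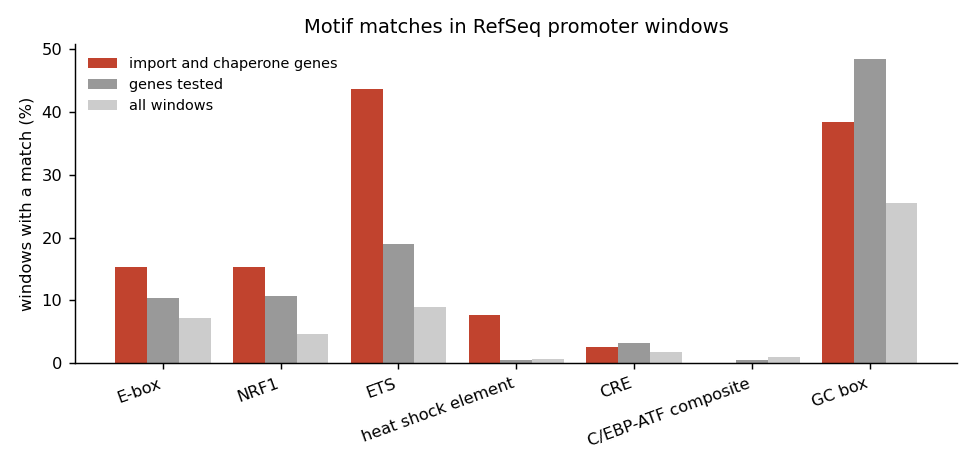
Share of promoter windows with at least 1 match to each motif (vertical axis, percent), for the members, for genes tested and for all RefSeq windows. The ETS bar of the members stands at 43.6%, beside 19.0% for genes tested.

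At the outer membrane, 5 of 9 genes tested rose and 2 fell (77.8% called, beside 61.3% over all genes tested). Tomm22 encodes the central receptor that organises the TOM complex. Its RNA (ENSMUSG00000022427) stood at 192, 181 and 161 FPKM in AlCl3 1 to 3, against 60.7, 57.5 and 39.8 FPKM in control 1 to 3. Every AlCl3 value was above every control value, and the ratio of means was 3.38. The log2 fold change was 1.76 (SE 0.17, limma adjusted p = 3.0e-05), which ranked 207 among all genes tested. The gene lies on the plus strand of chromosome 15 from 79670861 to 79673400 (GRCm38).

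Tomm70a encodes the receptor that takes up carrier proteins and their cytosolic chaperones. It stood at 21.4, 18.6 and 22.2 FPKM in AlCl3 and 9.72, 9.10 and 9.54 FPKM in controls, a rise 2.19-fold by the means (log2 fold change 1.05, SE 0.11, limma adjusted p = 5.2e-05). Tomm20, which encodes the receptor for presequences, did not pass. It had 59.4, 55.8 and 49.2 FPKM in AlCl3 and 79.96, 61.7 and 56.1 FPKM in controls, and the groups overlapped (log2 fold change -0.25, 95% interval -0.60 to 0.10, limma adjusted p = 0.18). With the trend of the values with GC content and length removed, Tomm20 was lower (log2 fold change -0.56, limma adjusted p = 0.017). The ratio of Tomm22 to Tomm20 was 3.24, 3.24 and 3.27 in AlCl3 and 0.759, 0.933 and 0.710 in controls. That ratio was thus nearly constant among the AlCl3 libraries and above all controls (exact two-sided permutation p = 0.1, the smallest that 3 against 3 values allow).

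Tomm40 encodes the import channel itself and rose to 22.5, 25.0 and 22.4 FPKM in AlCl3, against 13.6, 14.9 and 16.0 FPKM in controls (log2 fold change 0.62, SE 0.11, limma adjusted p = 0.0012). Its relative Tomm40l went the other way, at 2.21, 2.59 and 2.16 FPKM in AlCl3 and 3.601, 3.66 and 3.87 FPKM in controls (log2 fold change -0.51, limma adjusted p = 0.0043). Exons of Nr1i3 on the opposite strand cover 64.3% of the Tomm40l exons, and Nr1i3 itself was at 0 FPKM in AlCl3 and at most 0.0136 FPKM in controls. How reads in the shared stretch were counted was not given, so the level of Tomm40l is less certain. The ratio of Tomm40 to Tomm40l was 10.2, 9.62 and 10.4 in AlCl3 and 3.77, 4.07 and 4.12 in controls. All AlCl3 ratios were above all control ratios. This order follows from the separation of both genes in opposite directions, so the ratio is no further test. Samm50, whose product inserts beta-barrel proteins such as the channel into the outer membrane, rose to 26.2, 28.4 and 25.0 FPKM in AlCl3, against 17.2, 17.7 and 15.4 FPKM in controls (log2 fold change 0.63, SE 0.11, limma adjusted p = 0.0010).

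The small TOM subunits, which stabilise the channel, were among the highest levels and parted in direction. Tomm7 fell to 92.8, 96.0 and 68.7 FPKM in AlCl3, against 176, 131 and 126 FPKM in controls, with no overlap (log2 fold change -0.74, SE 0.18, limma adjusted p = 0.0056). Tomm5 had 176, 181 and 143 FPKM in AlCl3 and 147, 112 and 110 FPKM in controls, so that AlCl3 3 lay below control 1. Its log2 fold change of 0.44 passed at a limma adjusted p of 0.039, and this call was lost in 6 of 14 alternatives (0.076 to 0.13), among them those without control 2, control 3, AlCl3 1 or AlCl3 2. With the GC and length trend taken out it was 0.23. Tomm6 was listed at 0 in 5 libraries and held 1 read in the other, and exons of other annotated genes cover 84.2% of its exons, 76.0% on its own strand by Gm21981. Its level is therefore uncertain. Tomm34, which encodes a cytosolic cochaperone of precursor proteins, had 12.7, 12.7 and 16.2 FPKM in AlCl3 and 13.7, 15.3 and 16.2 FPKM in controls and did not pass (log2 fold change -0.12, 95% interval -0.42 to 0.18).

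**Figure D3:**
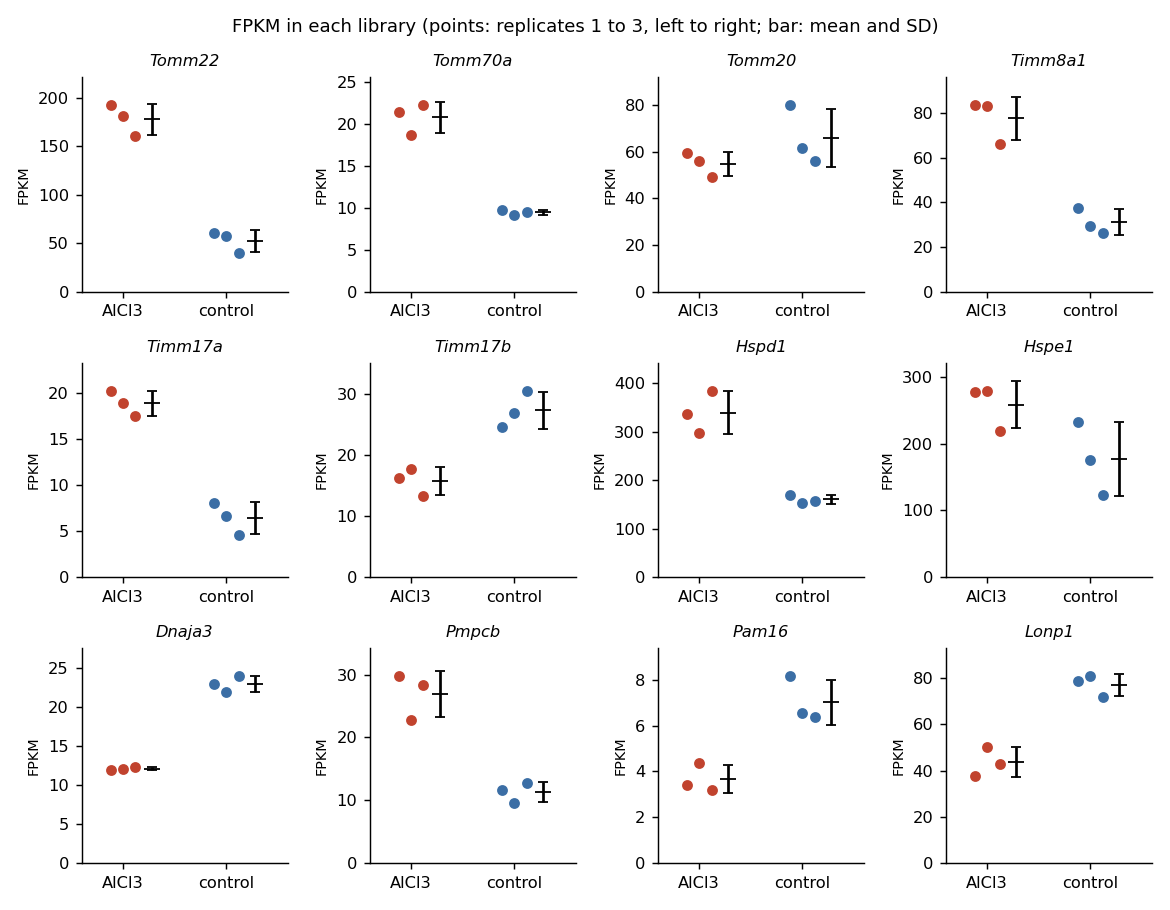
FPKM of 12 members in each library (vertical axes, from 0), AlCl3 in red and control in blue, with mean and SD in black. Tomm22, Tomm70a, Timm8a1, Timm17a, Hspd1 and Pmpcb lie higher and Timm17b, Dnaja3, Pam16 and Lonp1 lower in all AlCl3 libraries, while the groups overlap for Tomm20 and Hspe1.

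Between the membranes, 2 of 7 genes tested rose and 1 fell, and 4 did not pass. The share called was 42.9%, under the 61.3% over all genes tested. The small TIM proteins are hexameric chaperones that shield hydrophobic precursors, and they are oxidised on arrival by a disulfide relay made of the Chchd4 and Gfer products. Timm8a1, the mouse counterpart of the human deafness-dystonia gene, rose to 83.4, 82.8 and 66.2 FPKM in AlCl3, against 37.4, 29.6 and 26.1 FPKM in controls, 2.50-fold by the means (log2 fold change 1.30, SE 0.16, limma adjusted p = 1.1e-04). An annotated copy, Gm9797, matches 43.1% of its transcript at 100% identity and held 657 reads in AlCl3 and 335 in controls, beside 5300 and 2236 for Timm8a1. Its relative Timm8b had 128, 146 and 113 FPKM in AlCl3 and 208, 136 and 146 FPKM in controls, with overlap (log2 fold change -0.32, 95% interval -0.73 to 0.10, limma adjusted p = 0.16). The ratio of Timm8a1 to Timm8b was 0.649, 0.566 and 0.588 in AlCl3 and 0.180, 0.218 and 0.179 in controls (exact two-sided permutation p = 0.1).

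Timm10 and Timm9 encode the hexamer that carries metabolite carriers to TIM22. Timm10 rose to 59.2, 52.8 and 51.0 FPKM in AlCl3, against 37.6, 35.2 and 32.5 FPKM in controls (log2 fold change 0.62, SE 0.12, limma adjusted p = 0.0015). Timm9 had 7.18, 7.65 and 6.25 FPKM in AlCl3 and 6.86, 4.99 and 4.90 FPKM in controls and did not pass (log2 fold change 0.29, 95% interval -0.04 to 0.62). It passed as higher in 2 of 14 alternatives, and its log2 fold change was -0.051 with the GC and length trend taken out. Timm13, the partner of the Timm8 proteins, had 120, 145 and 102 FPKM in AlCl3 and 182, 140 and 168 FPKM in controls. Its log2 fold change of -0.42 missed the threshold (limma adjusted p = 0.051), passed in 4 of 14 alternatives, and was 0.05 with the GC and length trend taken out. Gfer, the sulfhydryl oxidase gene that reoxidises the relay, stood at 17.6, 15.6 and 14.8 FPKM in AlCl3 and 23.9, 19.3 and 23.0 FPKM in controls, without overlap (log2 fold change -0.44, SE 0.13, limma adjusted p = 0.013). This call was lost after rescaling to TPM (0.081), without AlCl3 3 (0.052) and with the GC and length trend taken out (0.14). A stretch of 32.3% of the Gfer transcript is matched at 99.8% identity by Dst, so its level is less certain. Chchd4, the oxidoreductase gene of the relay, had 13.9, 12.3 and 11.6 FPKM in AlCl3 and 11.7, 9.94 and 8.11 FPKM in controls (log2 fold change 0.33, limma adjusted p = 0.074). It passed as higher in 3 of 14 alternatives, and its log2 fold change was 0.047 with the GC and length trend taken out. Timm10b, at 0.203 ± 0.0648 FPKM in AlCl3 and 0.323 ± 0.0621 FPKM in controls (SD, n = 3 each), and Timm8a2, with 0 reads in AlCl3 and 2 in controls, lay below the filter. Other genes' exons cover 22.1% of the Timm10b exons, those of Arfip2 on the opposite strand among them.

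The TIM22 complex inserts carrier proteins into the inner membrane. Its subunit genes parted. Timm22, the channel gene, fell to 20.4, 21.8 and 16.3 FPKM in AlCl3, against 28.8, 26.8 and 26.6 FPKM in controls (log2 fold change -0.48, SE 0.13, limma adjusted p = 0.010). Timm29, a subunit gene of animals, had 17.6, 17.4 and 16.9 FPKM in AlCl3 and 12.9, 14.0 and 13.0 FPKM in controls (log2 fold change 0.36, SE 0.10, limma adjusted p = 0.014). The groups did not overlap in either gene. Without AlCl3 1 the call of Timm29 was lost (limma adjusted p = 0.070).

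All 5 TIM23 genes tested passed, 4 of them higher, beside 61.3% called and 31.2% higher over all genes tested. Timm17a and Timm17b encode alternative subunits at the centre of that translocase, and they moved in opposite directions. Timm17a rose to 20.3, 18.9 and 17.6 FPKM in AlCl3, against 8.07, 6.65 and 4.59 FPKM in controls, 2.94-fold by the means (log2 fold change 1.45, SE 0.17, limma adjusted p = 9.5e-05). Timm17b fell to 16.3, 17.7 and 13.3 FPKM in AlCl3, against 24.6, 27.0 and 30.6 FPKM in controls (log2 fold change -0.76, SE 0.14, limma adjusted p = 0.0012). The ratio of Timm17a to Timm17b was 1.24, 1.07 and 1.32 in AlCl3 and 0.327, 0.247 and 0.150 in controls. By FPKM, Timm17a was thus the higher of the pair in all AlCl3 libraries and the lower in all controls. That order depends on the exon lengths used, 7893 bases for Timm17a and 2557 bases for Timm17b. The levels of the pair are therefore less certain than the change in their ratio. That the ratios did not overlap between the groups follows from the separation of both genes in opposite directions and is no further test.

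The remaining TIM23 genes were higher in AlCl3 in every library. Timm23, the channel gene, had 149, 140 and 126 FPKM in AlCl3 and 108, 78.3 and 49.5 FPKM in controls, a wide spread among controls (log2 fold change 0.87, SE 0.24, limma adjusted p = 0.012, and 0.060 with no filter on low values, while the log2 fold change was 0.58 without control 3). Its 4 annotated copies in the table held 4.56% as many reads. Timm50, which encodes the receptor that meets presequences behind TOM, rose to 42.1, 45.8 and 39.7 FPKM in AlCl3, against 27.6, 26.2 and 29.4 FPKM in controls (log2 fold change 0.60, SE 0.11, limma adjusted p = 0.0014, and a log2 fold change of 1.08 with the GC and length trend taken out). Timm21, whose yeast counterpart contacts both TOM and the respiratory chain, rose to 8.01, 6.74 and 7.33 FPKM in AlCl3, against 4.27, 2.66 and 2.64 FPKM in controls (log2 fold change 1.02, SE 0.16, limma adjusted p = 5.5e-04, with 0.67 for the log2 fold change once the trend was taken out).

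**Figure D4:**
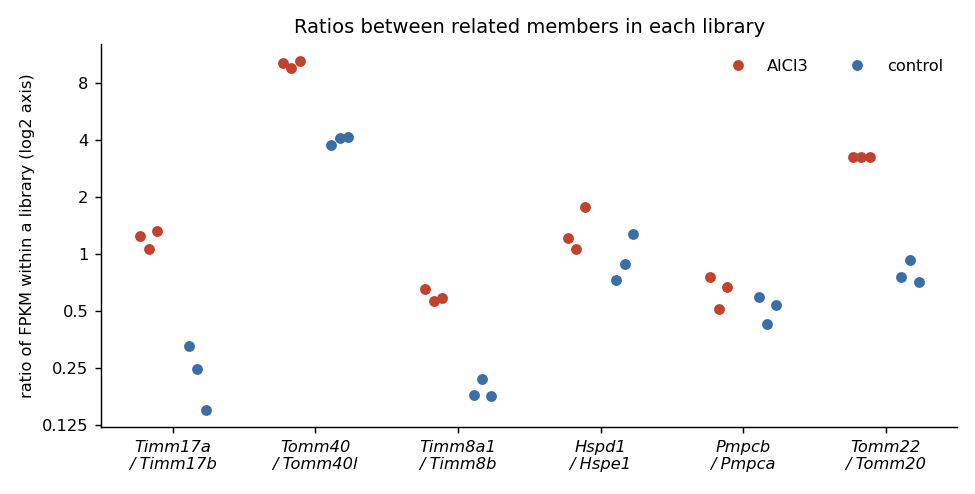
Ratio of FPKM between related members within each library (vertical axis, log2 scale), AlCl3 in red left of control in blue. The ratios of Timm17a to Timm17b, Tomm40 to Tomm40l, Timm8a1 to Timm8b and Tomm22 to Tomm20 lie higher in all AlCl3 libraries, and those of Hspd1 to Hspe1 and Pmpcb to Pmpca overlap between the groups.

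In the import motor, 2 of 5 genes rose, 2 fell and 1 did not pass. Hspa9, the mitochondrial Hsp70 gene and the member with most reads, had 212, 174 and 225 FPKM in AlCl3 and 118, 120 and 137 FPKM in controls (log2 fold change 0.70, SE 0.14, limma adjusted p = 0.0024, with 0.41 for the log2 fold change once the GC and length trend was taken out). Timm44, which tethers that chaperone to the channel, had 25.7, 24.5 and 26.3 FPKM in AlCl3 and 14.3, 14.0 and 15.8 FPKM in controls (log2 fold change 0.76, SE 0.11, limma adjusted p = 2.6e-04). Pam16 and Dnajc19 encode the J-type pair that regulates the chaperone's ATPase. Pam16 fell to 3.43, 4.38 and 3.21 FPKM in AlCl3, against 8.16, 6.54 and 6.40 FPKM in controls (log2 fold change -0.78, SE 0.14, limma adjusted p = 0.0012). Dnajc19 stood at 18.1, 18.9 and 13.4 FPKM in AlCl3 and 33.9, 19.2 and 24.6 FPKM in controls (log2 fold change -0.58, SE 0.21, limma adjusted p = 0.035). The Dnajc19 call was lost with no filter on low values (0.12), under median-ratio scaling (0.051) and without control 1, control 3 or AlCl3 3 (0.11, 0.050 and 0.12), while its log2 fold change was -0.37 without control 1 and -0.94 with the GC and length trend taken out. Grpel1, the nucleotide exchange factor gene, had 48.8, 52.2 and 41.6 FPKM in AlCl3 and 48.6, 40.6 and 30.0 FPKM in controls (log2 fold change 0.27, 95% interval -0.13 to 0.67, limma adjusted p = 0.21). It passed as higher in 1 of 14 alternatives, and its log2 fold change was 0.065 with the GC and length trend taken out.

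Both subunit genes of the matrix processing peptidase, which removes presequences, rose, beside 31.2% higher over all genes tested. Pmpcb, the catalytic subunit gene, reached 29.7, 22.8 and 28.3 FPKM in AlCl3, against 11.6, 9.55 and 12.8 FPKM in controls, 2.38-fold by the means (log2 fold change 1.18, SE 0.15, limma adjusted p = 1.1e-04). Pmpca, the substrate-binding subunit gene, reached 39.2, 44.3 and 42.4 FPKM in AlCl3, against 19.5, 22.5 and 23.6 FPKM in controls (log2 fold change 0.91, SE 0.12, limma adjusted p = 1.5e-04). Neither gene's groups overlapped. The ratio of Pmpcb to Pmpca, at 0.759, 0.515 and 0.666 in AlCl3 and 0.593, 0.425 and 0.540 in controls, did overlap (exact two-sided permutation p = 0.3).

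Among the matrix folding genes 3 of 4 rose, beside 31.2% over all genes tested. Hspd1 encodes the barrel of the chaperonin and Hspe1 its lid, and they share the divergent stretch printed above. Their annotated exons overlap on opposite strands, over 4.24% of the Hspd1 and 7.60% of the Hspe1 exon bases. How reads in that overlap were counted was not given. Hspd1 had 337, 297 and 385 FPKM in AlCl3 and 170, 154 and 158 FPKM in controls, 2.11-fold by the means and without overlap (log2 fold change 1.07, SE 0.14, limma adjusted p = 1.8e-04). Its processed copy Hspd1-ps3 held 1834 reads in AlCl3 and 1090 in controls, beside 43785 and 21594 for Hspd1. Hspe1 had 277, 279 and 218 FPKM in AlCl3 and 233, 175 and 123 FPKM in controls, so that AlCl3 3 lay below control 1. Its log2 fold change of 0.58 (SE 0.22) passed at a limma adjusted p of 0.047, and the call was lost in 7 of 14 alternatives (0.087 to 0.14), among them those without control 2, control 3, AlCl3 1 or AlCl3 2. Without control 3 the log2 fold change was 0.35, and with the GC and length trend taken out it was 0.33. The ratio of Hspd1 to Hspe1 was 1.21, 1.07 and 1.76 in AlCl3 and 0.732, 0.881 and 1.28 in controls and overlapped (exact two-sided permutation p = 0.3).

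Trap1, the mitochondrial Hsp90 gene, rose to 42.6, 43.8 and 42.8 FPKM in AlCl3, against 28.4, 26.3 and 25.4 FPKM in controls (log2 fold change 0.67, SE 0.11, limma adjusted p = 5.1e-04). Dnaja3, which encodes the J-protein that hands clients to the matrix Hsp70, fell to 12.0, 12.0 and 12.3 FPKM in AlCl3, against 23.0, 22.0 and 23.9 FPKM in controls. The spread was small in both groups, and the log2 fold change was -0.87 (SE 0.10, limma adjusted p = 9.2e-05).

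The matrix proteases split. Lonp1, the ATP-dependent Lon protease gene, fell to 37.6, 50.3 and 43.0 FPKM in AlCl3, against 79.0, 80.9 and 71.9 FPKM in controls (log2 fold change -0.82, SE 0.13, limma adjusted p = 6.4e-04, and a log2 fold change of -0.49 with the GC and length trend taken out). Clpx, the unfoldase gene of the Clp protease, rose to 8.37, 9.31 and 9.92 FPKM in AlCl3, against 5.36, 4.63 and 6.65 FPKM in controls (log2 fold change 0.65, SE 0.14, limma adjusted p = 0.0031, with 0.36 for the log2 fold change once the trend was taken out). The peptidase gene Clpp had 85.3, 88.4 and 70.4 FPKM in AlCl3 and 115, 94.2 and 94.8 FPKM in controls. These groups did not overlap, but the log2 fold change of -0.31 (95% interval -0.63 to 0.01) did not pass (limma adjusted p = 0.081), and it was 0.14 with the GC and length trend taken out. The ratio of Clpx to Clpp was 0.0981, 0.105 and 0.141 in AlCl3 and 0.0468, 0.0491 and 0.0701 in controls. Its lack of overlap follows from the separation of both genes in opposite directions and is no further test.

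GC content moved with the fold changes. The longest transcripts of members that rose had a median GC content of 47.9%, those of members that fell 51.6% and those that did not pass 48.5%. Across the 37 members the Spearman correlation of log2 fold change with GC content was -0.36, and across 11183 genes tested it was -0.34, both as descriptions over genes that share the same libraries. With the trend of each library's values with GC content and exon length removed, 19 members were higher and 10 lower, beside 33.7% and 33.6% of the genes tested (67.3% called in all), and the members' median was 0.33. Of the 20 rises Hspe1 did not pass in that fit, and of the 9 falls Gfer did not, while Tomm20 and Timm8b passed as lower.

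**Figure D5:**
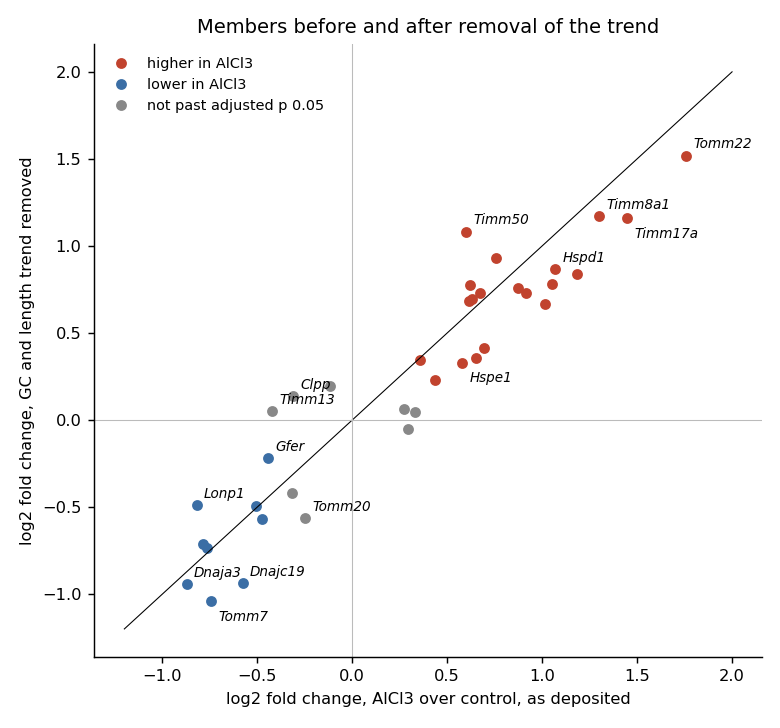
Log2 fold change of each member (AlCl3 over control) from the deposited FPKM (horizontal axis) and with the GC and length trend taken out (vertical axis), with the line of equality. Points of called members lie on the same side of 0 on both axes, with Timm50 moving up to 1.08 and Gfer moving to -0.22.

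Other genes of import and of the inner membrane moved in both directions too. Of 17 import partners 8 rose and 6 fell, with a median log2 fold change of 0.30, beside 31.2% higher and 30.2% lower over all genes tested. The number higher was 4 without AlCl3 1 and also 4 with the GC and length trend taken out. The 3 genes with the smallest p-values in that list all fell. Hscb, a J-protein gene that works with Hspa9 in iron-sulfur cluster transfer, fell to 21.2, 21.1 and 17.2 FPKM in AlCl3, against 63.3, 56.1 and 55.4 FPKM in controls (log2 fold change -1.51, limma adjusted p = 1.3e-05). Immp2l, a subunit gene of the inner membrane peptidase, fell to 1.39, 1.29 and 1.37 FPKM in AlCl3, against 6.15, 5.14 and 5.24 FPKM in controls (log2 fold change -1.47, limma adjusted p = 1.1e-05). Oxa1l, which encodes the insertase for proteins made inside the organelle, fell by 1.03 on the log2 scale (limma adjusted p = 7.5e-05).

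Among 9 inner membrane protease and prohibitin genes 4 rose and 2 fell, with a median of 0.18, and 1 fell after rescaling to TPM. The share called was 66.7%, near the 61.3% over all genes tested. Phb, which encodes a scaffold that holds inner membrane proteases, rose to 120.1, 117 and 105 FPKM in AlCl3, against 39.6, 36.9 and 27.4 FPKM in controls (log2 fold change 1.71, limma adjusted p = 1.8e-05). Yme1l1, the i-AAA protease gene, rose by 1.08 on the log2 scale (limma adjusted p = 4.9e-04). Htra2, a protease gene of the intermembrane space, fell to 32.1, 36.4 and 30.3 FPKM in AlCl3, against 61.5, 59.8 and 62.7 FPKM in controls (log2 fold change -0.88, limma adjusted p = 1.6e-04, and -0.32 with the GC and length trend taken out).

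Of 8 genes of the MICOS complex, which shapes the cristae and contacts the outer membrane insertion machinery, 3 rose and 1 fell. The remaining 4 did not pass, so the share called was under the 61.3% over all genes tested. Over all genes tested 31.2% were higher and 30.2% lower. The median log2 fold change of the MICOS genes was 0.41, and 0.11 with the GC and length trend taken out. Without control 1 the number higher was 5, and without AlCl3 2 the number lower was 2. Immt, its core subunit gene, rose to 23.2, 20.4 and 26.1 FPKM in AlCl3, against 6.05, 6.27 and 8.34 FPKM in controls (log2 fold change 1.62, limma adjusted p = 2.0e-05). Dnajc11 and Chchd3 rose by 1.14 and 0.81 on the log2 scale (limma adjusted p = 2.2e-05 and 8.7e-04).

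Regulators of mitochondrial gene expression and stress were divided, 4 of 10 rising and 5 falling, beside 31.2% and 30.2% over all genes tested. Only 1 rise passed without AlCl3 3, and 3 falls passed with the GC and length trend taken out. The nuclear receptor gene Esrra fell to 8.29, 9.31 and 7.63 FPKM in AlCl3, against 18.9, 18.1 and 21.5 FPKM in controls (log2 fold change -1.13, limma adjusted p = 5.3e-05). Myc fell to 67.6, 66.1 and 67.2 FPKM in AlCl3, against 139, 152 and 182 FPKM in controls (log2 fold change -1.21, limma adjusted p = 5.6e-05). Hsf1, the heat shock factor gene, fell by 0.75 on the log2 scale (limma adjusted p = 4.7e-04). Tfam, which encodes the packaging factor of mitochondrial DNA, rose to 17.6, 15.1 and 17.9 FPKM in AlCl3, against 12.1, 10.7 and 11.1 FPKM in controls (log2 fold change 0.54, limma adjusted p = 0.0032, with 0.22 for the log2 fold change once the trend was taken out).

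The respiratory factor gene Nrf1 (0.37, limma adjusted p = 0.014) and the ETS factor gene Gabpa (0.48, limma adjusted p = 0.041) rose on the log2 scale, and Atf5, a factor gene of the mitochondrial unfolded protein response, fell (-0.45, limma adjusted p = 0.013). With the GC and length trend taken out Nrf1 and Gabpa did not pass (0.15 and 0.46) and the log2 fold change of Atf5 was 0.18 (limma adjusted p = 0.15). Without AlCl3 3 the calls of Nrf1, Gabpa and Atf5 were lost (0.053, 0.14 and 0.051), and that of Gabpa also without control 1, control 2, control 3 or AlCl3 1 (0.11, 0.084, 0.050 and 0.077). The log2 fold change of Gabpa without AlCl3 3 was 0.29. Ppargc1a, a coactivator gene of mitochondrial biogenesis, lay below the filter at 0.333 ± 0.0952 FPKM in AlCl3 and 0.740 ± 0.137 FPKM in controls (SD, n = 3 each).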

How the data were processed

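Values of mRNA were deposited as FPKM, made by the authors, with 1 column per library, and low values lie in steps that scale with gene length. The submitters' processing notes name HISAT2 (version 2.1.0) and the GRCm38 build. Counter, annotation, strand setting and filters were not given in the sources used here.

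Symbols, exon lengths and transcripts came from GENCODE mouse M21, which held 24300 of 24354 identifiers. Dividing FPKM by the value of 1 read gave whole reads (within 0.01) for 98.9% of genes in each library. A floor of 3 reads in 1 kb equals 0.170 to 0.221 FPKM, for counting error only. Genes with a mean of at least 1 FPKM entered a two-sided moderated test of log2(FPKM + 1) without covariates, in which the variance could follow the mean level (R 4.3.3, limma 3.58.1). Folds on this scale understate changes of low genes. Copies are transcripts of other genes with at least 90% identity over at least 30% of the member's longest transcript (blastn).

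Members, lists and the naming rule were chosen with earlier results of these data known. Values in every library are given for the members with the smallest p in each role and the highest mean level, and for others as context. The count tests planned were not run, because the table holds no counts. limma-voom on recovered reads replaced them, chosen after seeing the data. Alternatives are named in the closing section.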

Additional observations from a re-analysis of the deposited data

How the results depend on the processing

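Of the 29 calls, 16 rises and 7 falls kept direction and threshold under every alternative run for them (14 for each, 13 for Tomm40l, which lies under a mean of 5 FPKM). The number of members higher ranged from 17 to 23 and of members lower from 7 to 10 over the alternatives. Over all genes the numbers ran from 2416 to 3778 higher and from 2260 to 3865 lower, from unlike numbers of genes tested. The lowest of each came from 7168 genes with a mean of at least 5 FPKM, and 3865 from 24354 genes with no filter. The members' median was 0.56 after rescaling to TPM and 0.33 with the GC and length trend taken out, against 0.44, and leaving out 1 library gave 0.35 to 0.56. Rescaling to TPM moved the median of all genes to 0.14. limma-voom on recovered reads, chosen after seeing the data, called 3596 genes higher and 3419 lower, and 20 and 10 members.

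Taking out the GC and length trend turned the sign of Timm9 (-0.051), Tomm34 (0.19), Timm13 (0.052), and Clpp (0.14) among members, none of them called, and of Romo1 (0.11) and Atf5 (0.18), both called falls, and Grpel2 (-0.037) and Dnajc15 (-0.0096), not called, among the other lists. Cebpb, a called fall at -0.74, came to -0.00055. The cause was not tested. Import partners higher numbered 5 with no filter, 4 with a mean FPKM of at least 5 and 4 after removal of the trend, and 4 to 7 leaving out 1 library. Inner membrane genes lower numbered 1 after rescaling to TPM. MICOS genes higher numbered 5 after rescaling to TPM, and leaving out 1 library gave 3 to 5 higher and 1 to 2 lower. Regulators higher numbered 2 with no filter and 1 to 4 leaving out 1 library, and regulators lower numbered 3 after removal of the trend.

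Nothing in the labels says that a replicate number marks a shared culture or day, so a replicate block was run only as an alternative. Same-numbered libraries deviated together with r of 0.20, 0.097 and 0.39, while AlCl3 2 followed control 1 (0.17) more than control 2. These values do not settle whether the numbers mark pairs. With the replicate block 21 members were higher and 9 lower, and over all genes 3778 and 3597, while MICOS genes lower numbered 2. The planned count tests on recovered reads were not run.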
